A study of Pinus pinaster with 6 samples.

Results

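The transcripts described are 2 glutathione S-transferases of maritime pine (Pinus pinaster) roots, pp_235803 of the tau class and pp_105383 of the lambda class, among 46658 transcripts in the deposited table. They were taken by their identifiers, and they had been selected on the difference in their deposited values between the libraries labelled Ammonium_01 to 03 and those labelled Control_01 to 03. Their own levels and fold changes are therefore given as a description, with no test. The study used roots of 1-month-old seedlings and asked how transcript levels, RNA modifications and proteins of the root relate to each other under an ammonium supply. Only the transcript levels are used here. The seedlings of both groups came from 1 Spanish provenance, grew in vermiculite on distilled water, and were given 3 days in seedbeds before the treatment. The ammonium group then received 80 mL of 3 mM NH4Cl (libraries N1, N2 and N3) and the water group 80 mL of water (C1, C2 and C3), and roots were collected 24 h later. The experiment was repeated on independent occasions, with 3 libraries in each group, and whole roots were used, so the cell types within them were not separated. Fewer cells of a type and less RNA per cell cannot be told apart in such samples.

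Glutathione S-transferases use the tripeptide glutathione, the main soluble thiol of plant cells. Tau class enzymes form a large group that is particular to plants, and they are best known for joining glutathione to electrophilic compounds such as herbicides and products of lipid oxidation, which marks these compounds for removal to the vacuole. Lambda class enzymes carry a cysteine in the active site instead of a serine, and they act mainly as thiol transferases, which take glutathione off a substrate instead of adding it. Protein glutathionylation, the term under which the lambda class transcripts were annotated, is the attachment of glutathione to protein cysteines.

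Direct RNA sequencing reads native poly(A) RNA in a nanopore, and the values are CPM (reads assigned to a transcript, scaled to library size with the authors' normalization). The reads recovered from these values numbered 1270378 in C1 and 2947096 to 5416076 in the other libraries, so C1 has the widest counting error. C1 and N1 stood apart from the others. On the principal components of log2(CPM + 1), C1 lay at 90.9 on the first component against -31.9 to -6.32 for the other libraries, and N1 lay at 66.1 on the second against -33.0 to 12.3, so each main result is also given without C1 and N1. Photosynthesis transcripts, which mark green tissue, were detected in every library, with 0 of 6 at 0 and a summed level of 428 to 584 CPM in ammonium roots and 530 to 716 CPM in water roots. All 6 were lower in ammonium roots (median log2 difference -0.12) and 0 of 6 passed limma (run on log2(CPM + 1), with Benjamini-Hochberg adjustment over all transcripts and a threshold of 0.05), 1 having an unadjusted p under 0.05 (4.58% of all transcripts had one with ammonium lower) and the edgeR tests and DESeq2 calling 0. Their part in the results below was not tested. PpAMP1 (pp_58007), an antimicrobial peptide that the study used to check the treatment, had 1138, 695 and 703 CPM in N1, N2 and N3, against 550, 485 and 574 CPM in C1, C2 and C3, so that its groups did not overlap. Limma did not call it (log2 difference 0.62, adjusted p = 0.220), and the difference was 0.39 without N1 and 0.41 without C1 and N1. edgeR's exact test and DESeq2 did call it (adjusted p = 0.0446 and 0.0397), and edgeR's quasi-likelihood test did not (0.0808). The study made its check by RT-qPCR, and it named other forms of PpAMP1 among its upregulated transcripts. The ammonium transporter PpAMT1.3 (pp_203543), also used for that check, had 48.7, 38.0 and 46.7 CPM in N1, N2 and N3, against 23.8, 29.9 and 43.7 CPM in C1, C2 and C3. Its groups overlapped, and limma gave an adjusted p of 0.497. The log2 difference was 0.48 with all libraries and 0.21 without C1 and N1.

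The tau class transferase pp_235803 was about 2.5 times as abundant in ammonium roots as in water roots. It had 15.9 CPM in N1, 20.3 CPM in N2 and 18.0 CPM in N3, against 6.14 CPM in C1, 7.98 CPM in C2 and 7.73 CPM in C3. Every ammonium library was above every water library, with a gap of about the same size as the highest water value. The means were 18.1 ± 2.17 CPM in ammonium roots and 7.28 ± 1.00 CPM in water roots (SD, n = 3 each), a ratio of 2.48. Over the 9 pairs of an ammonium with a water library the ratio ran from 1.99 to 3.30. The difference on the log2(CPM + 1) scale, where the added 1 CPM makes folds of weakly expressed transcripts look smaller, was 1.20 ± 0.14 (SE), and without C1 and N1 it was 1.18.

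These values rest on few reads. N1 held 49 reads of pp_235803, N2 95 and N3 101, against 8 in C1, 39 in C2 and 35 in C3. The exact 95% Poisson interval of C1 ran from 2.65 to 12.1 CPM and overlapped that of N1, from 11.8 to 21.0 CPM. The intervals of N2 and N3 (16.4 to 24.8 CPM and 14.7 to 21.9 CPM) lay above those of all 3 water libraries, of which the highest upper bound was that of C1. The intervals cover counting error only. The variance between libraries was 0.98 times that of counting error in ammonium roots and 0.23 times in water roots, with 3 libraries behind each value. For the neighbouring forms pp_235801 and pp_235810, described below, it was 2.83 and 2.52 times in ammonium roots and 0.08 and 0.49 times in water roots. pp_235803 was chosen on this contrast, which favours a small spread, so variation beyond counting error is not judged from its values.

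The lambda class transferase pp_105383 was about 1.6 times as abundant in ammonium roots as in water roots. It had 129 CPM in N1, 130 CPM in N2 and 116 CPM in N3, against 69.8 CPM in C1, 84.5 CPM in C2 and 81.5 CPM in C3. The groups did not overlap, with N3 the lowest ammonium library and C1 the lowest water library. The means were 125 ± 7.90 CPM in ammonium roots and 78.6 ± 7.75 CPM in water roots (SD, n = 3 each), a ratio of 1.59. Across the 9 pairs of libraries the ratio lay between 1.37 and 1.86. The difference on the log2(CPM + 1) scale was 0.67 ± 0.10 (SE), and 0.56 without C1 and N1.

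**Figure D1:**
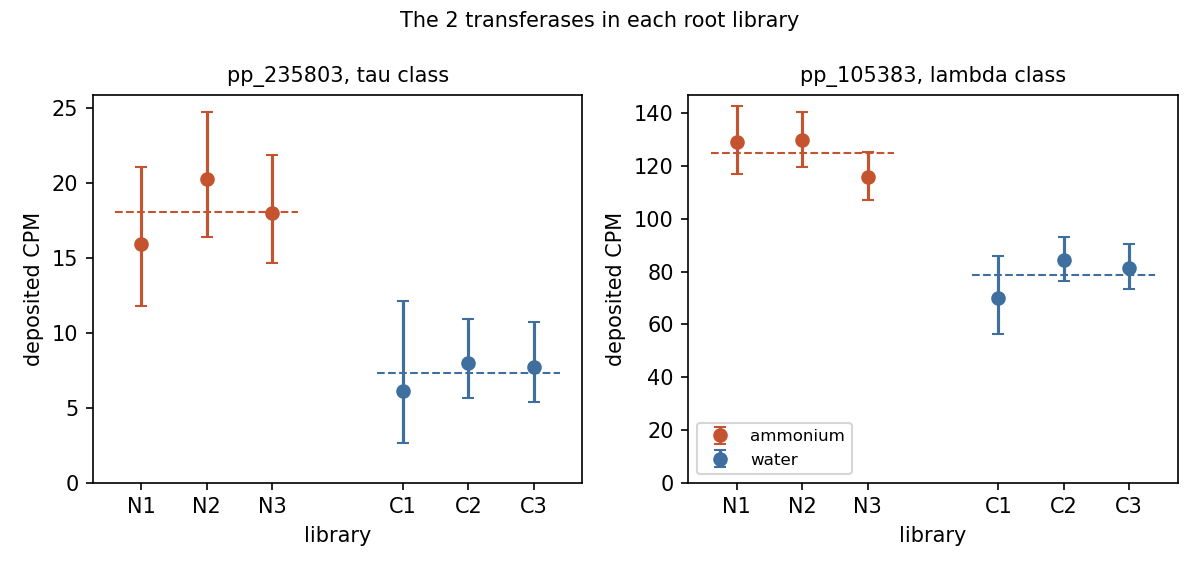
Deposited CPM of pp_235803 (left panel) and pp_105383 (right panel) in ammonium libraries N1 to N3 and water libraries C1 to C3. Bars are exact 95% Poisson intervals from the reads and dashed lines are group means (18.1 and 7.28 CPM for pp_235803, 125 and 78.6 CPM for pp_105383); every ammonium point lies above every water point.

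More reads stood behind pp_105383, with 398, 609 and 650 in N1, N2 and N3 and 91, 413 and 369 in C1, C2 and C3. Here the exact 95% Poisson intervals of the 2 groups did not overlap, the nearest being 107 to 125 CPM in N3 against 76.5 to 93.0 CPM in C2. The variance of this transcript was 2.48 times that of counting error among the ammonium libraries and 1.36 times among the water libraries. The intervals cover counting error only, and pp_105383 was chosen on this contrast, so nothing about the groups is read from their separation.

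Both transferases were among the transcripts with the largest relative differences, which is how they were found. A larger log2 difference than that of pp_235803 was seen in 37 of 46658 transcripts, and in 3 of the 17832 with a mean of at least 10 CPM. For pp_105383 the numbers were 997 of 46658 and 98 of 17832. Limma called 1 of the 2 (pp_235803), where it called 0.0386% of all transcripts in either direction. pp_235803 is thereby 1 of the 4 transcripts that limma called higher in ammonium roots. The groups of both did not overlap, as was the case with ammonium higher for 7.16% of all transcripts. Since the pair was chosen on this contrast, nothing is read from these counts.

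The tau class transcript differed more between the groups than the lambda class one. Within each library, log2(CPM + 1) of pp_235803 lay below that of pp_105383, and no comparison of level between the 2 genes is made from this. The difference, pp_235803 minus pp_105383, was -2.95, -2.62 and -2.62 in N1, N2 and N3, and -3.31, -3.25 and -3.24 in C1, C2 and C3. The 3 ammonium values lay above the 3 water values, by 0.54 on average, which is larger than the SD of either group (0.19 in ammonium roots and 0.04 in water roots). Both values come from the contrast that chose the pair, so the difference was not tested. Across the 6 libraries the pair moved together with a Pearson r of 0.97, a figure set mainly by the difference between groups.

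The table holds several transcript forms beside each of the pair. The forms of a group carry neighbouring identifiers, and they may share reads, since how reads were divided among near-identical transcripts is not given in the sources used here. Their values are therefore not independent of pp_235803 and pp_105383 and are described without a test. Names were at hand mainly for transcripts near the top of a list that the study ranked by this same contrast, so the forms known here as tau or lambda class are in part chosen by their difference.

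The tau class group comprised 3 forms of 1 unigene (a cluster of transcripts taken to come from the same gene), pp_235801, pp_235803 and pp_235810, the first and last with Arabidopsis GST TAU 11 as their closest named match. pp_235801 had 17.2, 25.2 and 20.9 CPM in N1, N2 and N3, against 9.21, 9.82 and 9.05 CPM in C1, C2 and C3. pp_235810 had 15.3, 22.4 and 21.0 CPM in N1, N2 and N3, against 9.97, 8.80 and 10.8 CPM in C1, C2 and C3. All 3 forms were separated by group, with log2 differences of 0.91 to 1.20, and in both pp_235801 and pp_235810 N1 was the lowest ammonium library. Without C1 and N1 the difference of pp_235801 was 1.20 and that of pp_235810 was 1.08.

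The proportions of the 3 forms overlapped between the treatments. pp_235803 made up 30.9 ± 1.69% of the summed CPM of the 3 forms in ammonium roots and 27.4 ± 2.92% in water roots (SD, n = 3 each), with the lowest share, 24.2%, in C1. pp_235801 made up 35.8 ± 1.17% in ammonium roots and 35.4 ± 2.24% in water roots. pp_235810 made up 33.2 ± 1.80% in ammonium roots and 37.2 ± 3.59% in water roots, with 39.4% in C1 and 39.2% in C3 above all ammonium libraries and 33.1% in C2 among them. The shares of pp_235803 overlapped, since C2 had 30.0% and the lowest ammonium library, N2, had 29.9%.

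Of 33 further measured transcripts within 20 numbers of pp_235803, none named as a transferase of these classes here, 18 were higher and 15 lower in ammonium roots, with a median log2 difference of 0.04. The groups of 7 of the 33 did not overlap with ammonium higher, beside 7.16% of all transcripts, and those of 2 with ammonium lower, beside 6.94%. Among the 33 was pp_235799, annotated with glutathione transferase activity, which had 2.60, 1.49 and 2.50 CPM in N1, N2 and N3, against 0.77, 1.23 and 0.88 CPM in C1, C2 and C3. In C1 that was 1 read's worth, and 3 reads correspond to 2.30 CPM there. Only N1 and N3 reached the 2 CPM that the authors' filter asked of 2 libraries. So pp_235799, 1 of the 7, entered the table through the ammonium group.

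The lambda class group was larger. The protein glutathionylation term lists an unbroken run of identifiers from pp_105374 to pp_105389, of which 15 were measured, and 6 of these were annotated as lambda class with a match to an Arabidopsis glutathione S-transferase family protein. All 15 were higher in ammonium roots on average, where 50.7% of all transcripts were. Their log2 differences were 0.07 to 1.15, with a median of 0.33 beside 0.00 for all transcripts. The direction depended on the libraries. Of the 17 measured transcripts of the whole term, which hold these 15, 14 were higher without N1 and 11 without C1 and N1. The 15 cannot be counted as separate genes.

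The run fell into 3 kinds of rows. In the first kind, pp_105375, pp_105382, pp_105383 and pp_105385 had almost the same value in every library, the lowest of the 4 being 94.2 to 98.6% of the highest. pp_105382 had 124, 128 and 114 CPM in N1, N2 and N3, against 69.8, 81.4 and 81.3 CPM in C1, C2 and C3. The log2 differences of these 4 lay between 0.65 and 0.67, and all were separated by group. Whether they count the same reads was not tested.

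The second kind, pp_105380 and pp_105381, was less abundant and more variable. pp_105380 had 20.8, 23.7 and 17.5 CPM in N1, N2 and N3, against 7.67, 13.9 and 13.3 CPM in C1, C2 and C3. pp_105381 had 10.1, 14.1 and 12.3 CPM in N1, N2 and N3, against 2.30, 5.93 and 7.95 CPM in C1, C2 and C3. Both were separated by group, but their differences leaned on C1, which was the lowest library in each. C1 held 10 reads of pp_105380 and 3 of pp_105381. For pp_105381 the log2 difference was 1.15 with all libraries and 0.85 without C1 and N1, and for pp_105380 it was 0.81 with all libraries and 0.55 without them. Leaving out 1 library at a time gave 0.73 (without C1) to 1.45 (without C3) for pp_105381, and 0.56 (without C1) to 0.95 (without C2) for pp_105380.

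The third kind held the remaining 9 rows, which had means of 1.87 to 22.5 CPM over the 6 libraries. Their log2 differences were 0.07 to 0.39 with a median of 0.25. In 0 of the 9 were the groups separated, beside 7.16% of all transcripts with ammonium higher. These 9 are the rows of the run that carry no lambda class name here. Names were at hand mainly for transcripts ranked by this contrast, so the gap between named and unnamed rows is in part set by that choice. The most abundant of them, pp_105377, had 26.6, 24.7 and 20.7 CPM in N1, N2 and N3, against 19.2, 20.7 and 23.0 CPM in C1, C2 and C3. As a description, the difference of pp_105383 was not shared in size by every row of its run. pp_105383 itself made up 20.5 ± 0.32% of the summed CPM of the run in ammonium roots and 19.8 ± 0.63% in water roots (SD, n = 3 each), with overlapping shares.

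**Figure D2:**
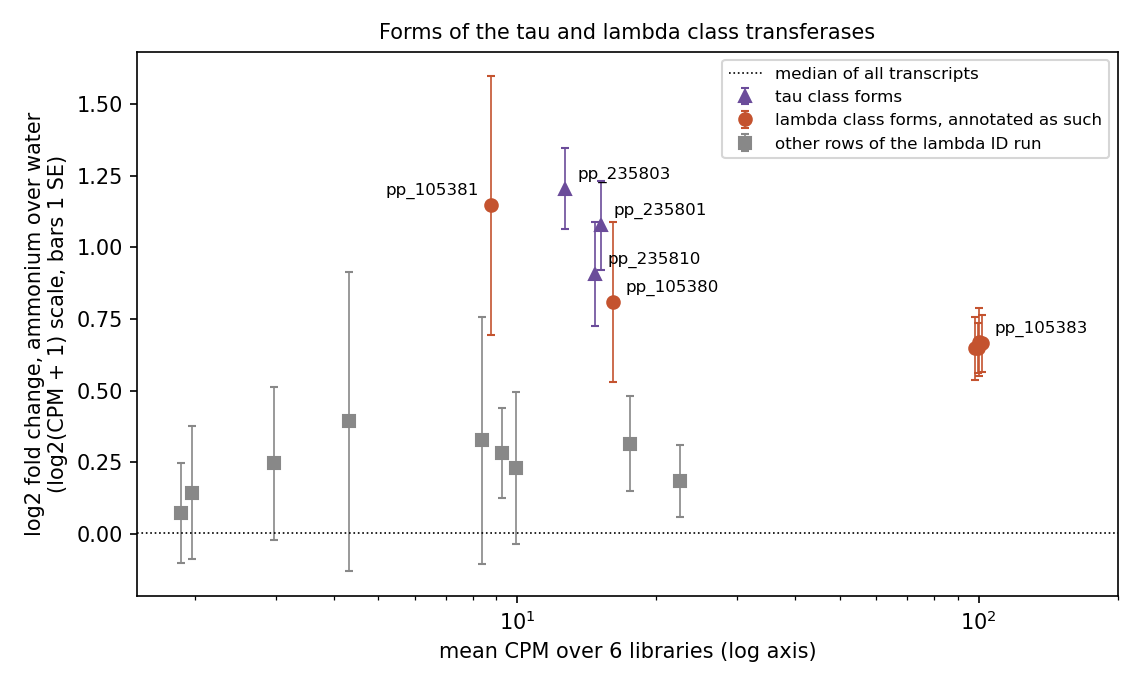
Log2 fold change of ammonium over water roots on the log2(CPM + 1) scale (vertical axis, bars 1 SE, n = 3 per group) against mean CPM over the 6 libraries (log axis) for the 3 tau class forms, the 6 annotated lambda class forms and the other 9 rows of the lambda run. The 4 abundant lambda forms lie together at 0.65 to 0.67, the tau forms lie at 0.91 to 1.20, and the rows not annotated as lambda class lie at 0.07 to 0.39, all above the median of all transcripts.

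The term of protein glutathionylation was then read as a whole. Of its 27 identifiers 17 were measured, and 0 of 17 passed limma with adjustment over all transcripts, while 6 had an unadjusted p under 0.05 with ammonium higher, beside 4.1% of all transcripts. The exact test of edgeR, run on reads recovered from the CPM, called 6, all with ammonium higher, beside 0.242% of all transcripts. These 6 were the annotated lambda class forms, pp_105383 included, so the count repeats the contrast by which pp_105383 was chosen. edgeR's quasi-likelihood test and DESeq2 called 4 each, and DESeq2 gave 9 of the 17 no adjusted p.

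Only 2 measured transcripts of the term lay outside the run, and they were looked at after their values were seen. pp_207963, matched to dehydroascorbate reductase (an enzyme that regenerates ascorbate with glutathione), had 54.6, 43.9 and 47.2 CPM in N1, N2 and N3, against 46.0, 47.9 and 46.8 CPM in C1, C2 and C3. Its groups overlapped and the log2 difference was 0.04 ± 0.09 (SE). pp_243380 had 6.49, 4.26 and 4.10 CPM in N1, N2 and N3, against 3.84, 3.27 and 3.75 CPM in C1, C2 and C3. It was separated by group without passing limma (adjusted p = 0.739).

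Other glutathione S-transferases were taken from annotation, as far as the annotation was shown. Of 41 listed, 31 were measured. Limma called 0 of the 31, 4 had an unadjusted p under 0.05 with ammonium higher (4.1% of all transcripts) and 0 with ammonium lower (4.58%), and edgeR's exact test called 1 and its quasi-likelihood test and DESeq2 none (11 had no adjusted p in DESeq2). The log2 difference was above 0 in 30 of the 31, beside 50.7% of all transcripts, with a median of 0.18 and a range of -0.02 to 0.77. It was above 0 in 25 of the 31 without N3, in 26 without C3 and in 29 without C1 and N1. The list was drawn up with earlier results of these data known, and its pp_129678 also stands in the list ranked by this contrast. Several of these are forms that may share reads, and pp_235799 above is 1 of them. In 3 of the 31 the groups were separated with ammonium higher, beside 7.16% of all transcripts. pp_235799 was 1 of the 3, and it met the authors' filter of 2 CPM in 2 libraries only through N1 and N3. Without it the groups were separated in 2 of 30.

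The transcript called by the exact test was pp_233771, a form of the EF1Bgamma class, which is a subunit of translation elongation factor 1 with a transferase-like domain. It had 15.3, 17.9 and 20.1 CPM in N1, N2 and N3, against 9.21, 9.82 and 11.0 CPM in C1, C2 and C3. The groups did not overlap, and the log2 difference was 0.76 ± 0.13 (SE), with an adjusted p of 0.172 in limma. Over the 17 other settings the adjusted p ran from 0.0185 in edgeR's exact test to 0.585, and 2 of the 17 were under 0.05. The 4 other forms of that class differed by 0.12 to 0.14 and overlapped between groups, as did 3 yqjG-like forms, which differed by 0.03 to 0.08. All of these were above 0, so related forms with similar values make up part of the count above 0 in the list.

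Among the tau and phi class transcripts of the list, pp_129678, closest to Arabidopsis GST TAU 22, had 28.9, 12.8 and 12.7 CPM in N1, N2 and N3, against 7.67, 11.5 and 9.50 CPM in C1, C2 and C3. Its groups were separated, with N1 well above N2 and N3. The adjusted p was 0.431 in limma and 0.194 or more under the other settings. pp_129679, closest to TAU 19, had 121, 152 and 142 CPM in N1, N2 and N3, against 103, 106 and 129 CPM in C1, C2 and C3. Its groups overlapped, as C3 exceeded N1. pp_217081, a phi class form (this class, particular to plants like the tau class, is known for herbicide conjugation), had 28.9, 35.0 and 32.6 CPM in N1, N2 and N3, against 23.0, 29.5 and 19.0 CPM in C1, C2 and C3. There C2 exceeded N1, and limma gave pp_129679 and pp_217081 adjusted p values of 0.517 and 0.479.

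Further transferases carried a name only in the list ranked by the study on this contrast. Leaving out the forms near the pair and pp_129678, described above, these were 9, all of the tau or phi class. All 9 were higher in ammonium roots, beside 50.7% of all transcripts, with log2 differences of 0.38 to 1.01. They were chosen by their difference, so this is a description only. The 6 most abundant were pp_217083, pp_181097, pp_143896, pp_197341, pp_174787 and pp_197333. The most abundant, the phi class pp_217083, had 58.4, 62.7 and 69.9 CPM in N1, N2 and N3, against 44.5, 53.8 and 43.5 CPM in C1, C2 and C3. pp_181097, closest to TAU 18, had 50.0, 51.2 and 54.4 CPM in N1, N2 and N3, against 38.4, 38.0 and 42.8 CPM in C1, C2 and C3. In 6 of the 9 the groups did not overlap, with ammonium higher, beside 7.16% of all transcripts. That count too follows from how the 9 were chosen. pp_197341 was among those that overlapped, with 11.0 CPM in N1 against 13.5 CPM in C3.

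Enzymes that make, recycle and use glutathione formed the next list. Of 15 listed transcripts 13 were measured, and limma, both edgeR tests and DESeq2 called 0 of them. At an unadjusted p under 0.05 limma had 0 with ammonium higher and 1 with ammonium lower, beside 4.1% and 4.58% of all transcripts. The groups were separated in 0 of the 13 with ammonium higher, beside 7.16% of all transcripts, and in 1 with ammonium lower, beside 6.94%. The median log2 difference was 0.05, with 8 above 0 and 5 below, and a range of -0.40 to 0.24. Glutamate-cysteine ligase (pp_166918), which catalyses the first step of glutathione synthesis, had 35.7, 26.0 and 32.1 CPM in N1, N2 and N3, against 34.5, 30.1 and 28.5 CPM in C1, C2 and C3. Glutathione reductase (pp_181128), which regenerates reduced glutathione, had 51.0, 42.0 and 46.0 CPM in N1, N2 and N3, against 41.4, 48.9 and 43.7 CPM in C1, C2 and C3. Both overlapped between groups, and both were picked for their roles after the values were seen.

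The transcript of this list with the smallest p was a glutathione peroxidase, pp_117930, an enzyme that reduces peroxides. It had 15.6, 14.5 and 14.3 CPM in N1, N2 and N3, against 19.2, 21.9 and 18.3 CPM in C1, C2 and C3. The groups were separated with ammonium lower, by -0.40 ± 0.08 (SE) on the log2 scale, and the adjusted p in limma was 0.495. The glutaredoxins pp_85340 and pp_85345, which reduce disulfides with glutathione, had log2 differences of 0.15 each, and the glyoxalase family transcript pp_215776 had 0.24. All 3 overlapped between groups (adjusted p in limma of 0.721, 0.725 and 0.684).

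Antioxidant enzymes outside the glutathione pathway formed the last list. Of 34 listed 29 were measured, limma called 0, and 3 with ammonium higher and 1 with ammonium lower had an unadjusted p under 0.05, beside 4.1% and 4.58% of all transcripts. In 5 of the 29 the groups were separated with ammonium higher, beside 7.16% of all transcripts, and in 3 with ammonium lower, beside 6.94%. edgeR's exact test called 1, its quasi-likelihood test and DESeq2 none. The median log2 difference was 0.11, with 21 above 0 and 8 below. Without C1 and N1 the median was 0.06, with 22 of the 29 above 0. The transcript called was the monodehydroascorbate reductase pp_109010, which regenerates ascorbate. It had 85.7, 65.0 and 56.9 CPM in N1, N2 and N3, against 43.0, 46.8 and 45.9 CPM in C1, C2 and C3. The groups did not overlap, with N1 the highest library (adjusted p of 0.224 in limma, and of 0.0498 in edgeR's exact test to 0.576 over the other settings). pp_245795, annotated as the copper chaperone of superoxide dismutase, had 141, 145 and 136 CPM in N1, N2 and N3, against 166, 208 and 151 CPM in C1, C2 and C3. Its groups were separated with ammonium lower, without passing limma (adjusted p = 0.507). The peroxiredoxin pp_204103 had 226, 203 and 215 CPM in N1, N2 and N3, against 173, 199 and 181 CPM in C1, C2 and C3, also separated by group. The thioredoxin pp_164234 and pp_204103 differed by 0.30 and 0.22 on the log2 scale (adjusted p in limma of 0.565 and 0.575).

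**Figure D3:**
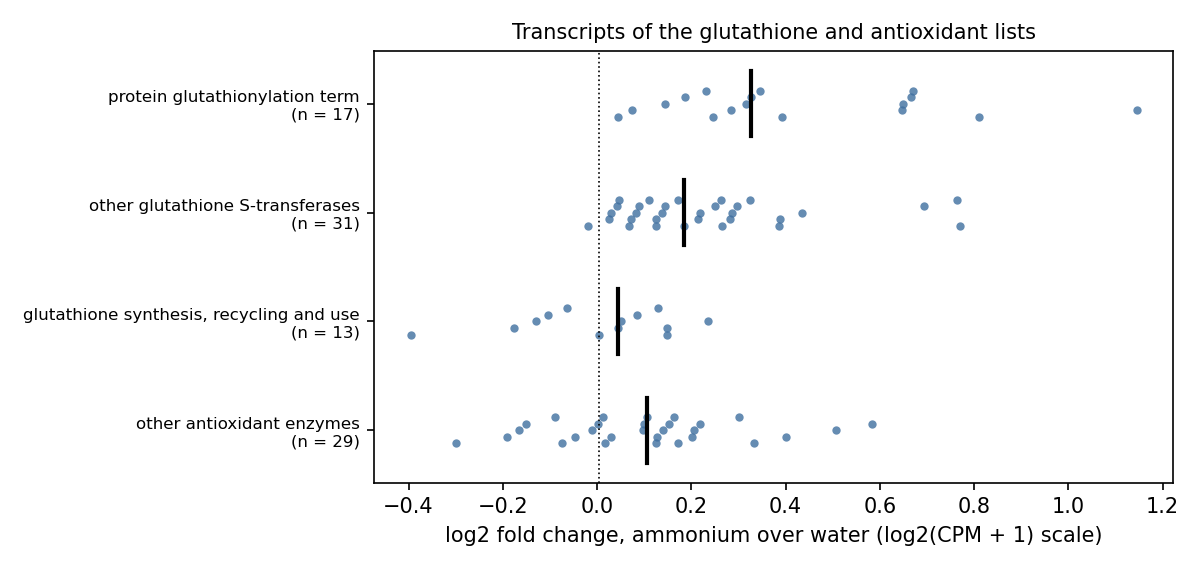
Log2 fold change of ammonium over water roots (log2(CPM + 1) scale) for every measured transcript of the 4 lists, with 1 point for each transcript. Black bars are list medians (0.33, 0.18, 0.05 and 0.11 from top to bottom) and the dotted line is the median of all transcripts; forms of 1 gene can share reads, so points are not independent.

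The named transcripts whose pattern over the 6 libraries was most like that of the pair were sought among 2679 with a name and a mean of at least 5 CPM, most of which had been ranked by this contrast. For pp_235803 they were the NADH-dependent glutamate synthase pp_238920, an enzyme of ammonium assimilation, a chaperonin (pp_83481) and a beta-fructofuranosidase (pp_95526), with Pearson r of 0.99 each. pp_238920 had 91.2, 103 and 97.2 CPM in N1, N2 and N3, against 53.7, 58.1 and 63.8 CPM in C1, C2 and C3. For pp_105383 they were 2 forms of a microtubule-associated protein of the RP/EB family, pp_175722 and pp_175720, and an HR-like lesion-inducing protein, pp_249614, also with r of 0.99. In all, 186 of the 2679 reached an r above 0.9 with pp_235803 and 182 with pp_105383. The points of each correlation share their libraries, their depths and the treatment.

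The fold changes of the pair were read again under 17 other settings. That of pp_235803 lay between 0.97 and 1.29 on the log2 scale and that of pp_105383 between 0.56 and 0.72, with ammonium higher in all 17. Leaving out 1 library at a time gave 1.10 to 1.29 for pp_235803 and 0.58 to 0.72 for pp_105383. The lowest of these values came without C1 for both transcripts.

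**Figure D4:**
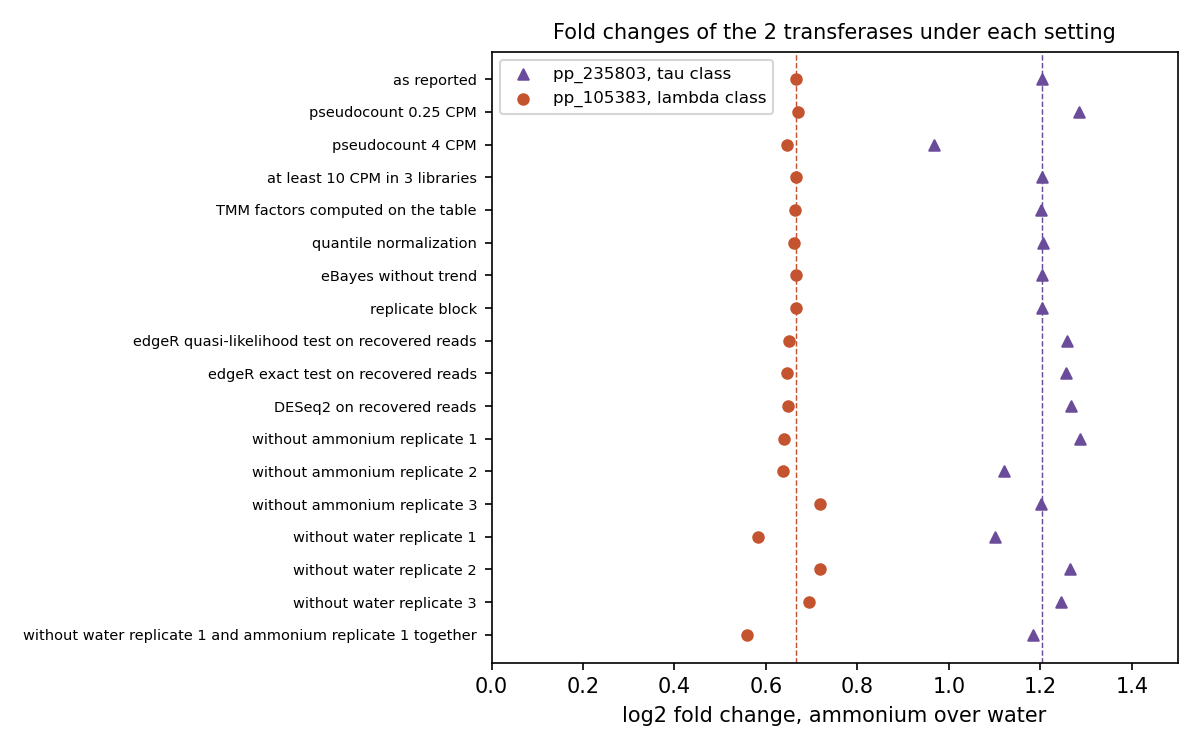
Log2 fold change of ammonium over water roots for pp_235803 (triangles) and pp_105383 (circles) as reported and under 17 other settings, with dashed lines at the reported values of 1.20 and 0.67. The tau class values stay between 0.97 and 1.29 and the lambda class values between 0.56 and 0.72.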

How the data were processed

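Direct RNA sequencing libraries of whole roots were used, 3 for each treatment, grouped by their labels. The authors called bases with Guppy, kept reads above a quality limit, aligned them with minimap2 to a root transcriptome and made CPM values with edgeR. The deposited CPM table was filtered by the authors at 2 CPM in 2 or more libraries, which all 46658 transcripts meet. The sources used here give neither tool versions nor the counting program, nor how reads that match several transcripts were treated.

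Every value of the table (100%) corresponded to a whole number of reads, at a relative tolerance of 1e-06, and from 1270378 to 5416076 reads were recovered per library. A level of 3 reads equals 0.535 to 2.30 CPM. The main test was limma 3.58.1 in R 4.3.3 on log2(CPM + 1), with eBayes and a trend, adjusted by Benjamini-Hochberg over all transcripts, two-sided at 0.05. Tests on the recovered reads with edgeR 4.0.16 (exact and quasi-likelihood) and DESeq2 1.42.0 were alternatives. The pseudocount (0.25 or 4 CPM), a stricter filter (10 CPM in 3 libraries), the scaling (TMM or quantile), the trend, a block for the replicate number and the set of libraries were also varied. The scripts were tested on simulated data.

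Named transcripts were the pair, the annotated tau or lambda class forms within 20 identifiers, up to 4 of each list with the smallest limma p, up to 6 transferases of the ranked list by mean CPM, and 3 with the most similar pattern. In the term of protein glutathionylation the smallest p belonged to lambda forms. The members and the lists were chosen with earlier results of these data known. Lists came from the study's annotation, of which only a part was at hand for glutathione transferase activity. No pair of replicates was a repeated deposit (chi-square over degrees of freedom of 1.28 to 2.83). The experiment was repeated independently, but nothing ties a replicate number to an occasion.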

Additional observations from a re-analysis of the deposited data

How the results depend on the processing

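Both transferases kept a positive difference under all 17 alternatives. The log2 difference of pp_235803 moved by more than its replicate spread under 1 of them, to 0.97 with a pseudocount of 4 CPM, which compresses low values by construction. The number of transcripts called among all 46658 was 18 in the main test. It was 0 in limma without the trend (3658 had an unadjusted p under 0.05), 49 with the replicate block, 114 in edgeR's quasi-likelihood test, 378 in its exact test, 97 in DESeq2 and 352 without C1 and N1, and 0 to 71 when 1 library was left out (0 without C2, where 4726 had an unadjusted p under 0.05, 5 without N2 or N3, 29 without C1 and 71 without N1). The cause was not tested. The protein glutathionylation term had 0 calls in the main test, against 2 with quantile normalization, 4 in edgeR's quasi-likelihood test, 6 in its exact test, 4 in DESeq2 and 4 without C1 and N1, all of them annotated lambda forms in the exact test and without C1 and N1. The other glutathione S-transferases had 1 call in edgeR's exact test and 1 without C1 and N1, pp_233771 in both, and the other antioxidant enzymes had 1 in the exact test. Leaving out N1 or C1 with N1 turned the median of the glutathione synthesis, recycling and use list to -0.01 and -0.03, and without C1 and N1 11 of 17 transcripts of the term were higher. With at least 10 CPM in 3 libraries, 9 transcripts of the term remained, with a median of 0.65. Deviations of same-numbered libraries correlated at 0.00, 0.06 and -0.01, and those of differently numbered libraries at -0.04 to 0.04. Such values cannot tell whether libraries of the same number share an occasion. The replicate block called 0 in each of the 4 lists, while over all transcripts it called 49 against 18 in the main test. Of the pair, pp_235803 is limited more by reads, with 8 in C1, and the lambda form pp_105381 held 3 there.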
